A study of Mus musculus with 12 samples.

Results

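The 36 genes described here encode proteins of the cell cycle and of DNA replication. They were chosen by name and not by a cut on their values, though earlier results of these data were known. All 36 were found among the 21004 gene rows of the deposited table. Their transcripts were measured by RNA sequencing in 12 kidney libraries from mice of the outbred ICR strain, aged 8 weeks. There were 3 libraries in each of 4 groups, namely a control group, mice given busulfan, mice given busulfan plus L.J. at 10 mg/kg, and mice given L.J. alone at 10 mg/kg. Busulfan is an alkylating drug that damages DNA. L.J. is not spelled out in the labels, and the design text speaks of FMT instead, so the agent given to these 2 groups is uncertain. Sex and the dose and timing of busulfan are not stated. The title of the series asks whether L.J. counters harm done by busulfan to the kidney. Separate animals are not mentioned, so the p-values describe the spread between these libraries, which may be technical.

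A cell enters the cycle when D-type cyclins bind their kinases and release E2F factors, which switch on the genes of DNA replication. Origins are then licensed by loading of the MCM helicase, and the replication fork needs the clamp protein PCNA and a supply of deoxynucleotides. Cyclin A2, the B cyclins and the kinase CDK1 carry the cell through G2 and mitosis, and their transcripts are made mainly in dividing cells. Most tubule cells of an adult kidney rest outside the cycle, whereas D-type cyclins, CDK4 and PCNA are also made in cells that are not dividing. Transcripts of many mitotic genes are controlled through a short CHR element and CCAAT boxes in their promoters, and those of S-phase genes through E2F sites.

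Values are FPKM, fragments scaled to the length of the gene and to the mapped total of the library, so levels can be compared between genes. FPKM sums per library lay between 481937 and 541844, and the depth is not given. Steps between low values put it near 12690000 fragments in a library, with quartiles of 8041000 and 14750000 over 606 genes that were above 0 in a single library. The busulfan libraries differed among themselves. The first principal component held 41.8% of the variance, and on it busulfan 1 and busulfan 2 lay at 40.4 and 47.3, busulfan 3 at -10.5 and the other 9 libraries between -16.9 and -1.85. In busulfan 3 the deviation of a gene from its mean over the libraries also followed transcript length (Spearman correlation -0.511 across genes, which are not independent replicates), against correlations of -0.0661 to 0.301 in the other 11. Kidney epithelial markers (11 of 11 past the filter on low values) summed to between 36880 and 53730 FPKM in control, 9934 and 55390 in busulfan, 39560 and 47530 in busulfan plus L.J. and 42390 and 49670 in L.J. alone. The low sums were 15390 and 9934 in busulfan 1 and busulfan 2, and the androgen-regulated gene Kap made up most of each sum. Without Kap the sums were 4992 and 4903 FPKM in these libraries, against 4343 to 4747 in control. Busulfan 3 was at 4904 and busulfan plus L.J. 2 and 3 at 5071 and 5074. Of the other 10 markers 6, among them Aqp1 and Atp6v1b1, were above every control library in both busulfan 1 and busulfan 2. The share of all genes above control in this way is not given here. Slc34a1 was below every control library in busulfan 2, and Lrp2 was within the control range in both busulfan 1 and busulfan 2. Over all genes past the filter, the median log2(FPKM + 1) difference from the control mean was 0.125 in busulfan 1 and 0.171 in busulfan 2. Results that rest on busulfan 3 are given with and without it.

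Single values of the 36 genes ran from 0 to 131 FPKM. Cyclin D1 (Ccnd1) had the highest mean over the 12 libraries, at 102 FPKM, followed by Cdk4 at 44.6, cyclin D3 (Ccnd3) at 34.0, Pcna at 27.4 and the thymidylate synthase gene Tyms at 13.8. These 5 were the genes with a mean of 10 FPKM or more. At the other end were Bub1 at 0.112, Cdc6 at 0.172, Bub1b at 0.189 and cyclin E1 (Ccne1) at 0.216. All 12 values were at 1 FPKM or more in 17 genes and under 1 in 8 genes. In 34 of the 36 every library was above 0, and the exceptions were Ccnb1, listed at 0 in busulfan 1, and Bub1, listed at 0 in control 3. The filter used for testing, at least 1 FPKM in at least 3 libraries, kept 23 of the 36. It kept 4 of the 14 genes of G2, mitosis and chromosome segregation, called mitotic genes below, and 19 of the other 22.

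**Figure D1:**
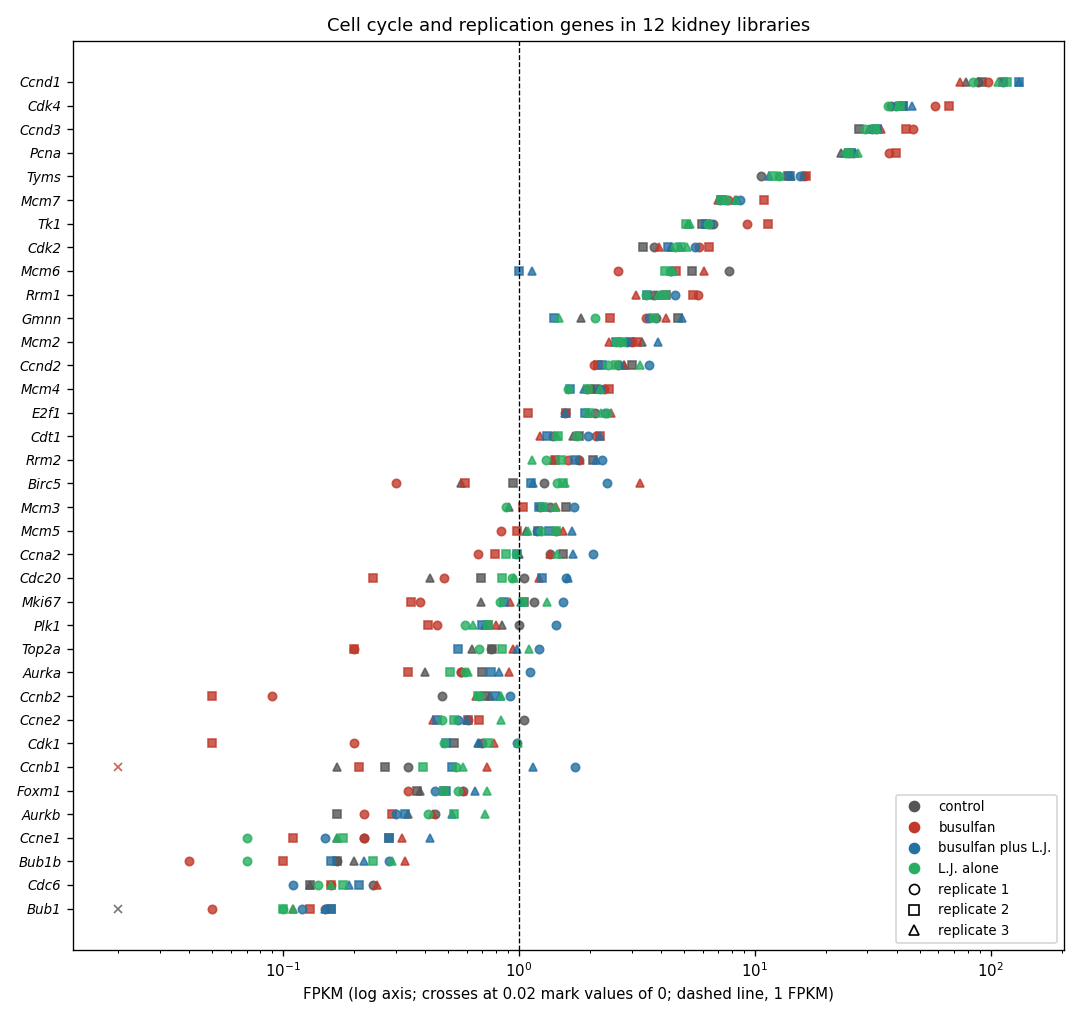
FPKM of each of the 36 genes in each of the 12 libraries, on a log axis, with genes ordered by their mean; colours mark the groups, shapes the replicates, crosses values of 0, and the dashed line 1 FPKM. Most G1 and DNA synthesis genes, though not Ccne1 and Ccne2, lie above the line and most mitotic genes below it, where the values of busulfan 1 and busulfan 2 are often the lowest.

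Promoter sequences were available for 28 of the 36 genes, from RefSeq on GRCm38.p6, and the 250 bases before the start were searched on both strands. None was used for Ccnd1, Ccnd2, Ccna2, Ccne2, Gmnn, Mcm4, Foxm1 and Aurkb. A CHR element, searched as TTTGAA or TTTAAA, was found in 8 of 11 mitotic genes and 4 of the other 17, against 25.5% of the promoters of 27025 genes. A CCAAT box, searched as CCAAT, was found in 10 of 11 mitotic genes and 9 of the other 17, against 34.5% of all genes. An E2F site, searched as TTTCCCGC, TTTGGCGC, TTTCGCGC or TTTGCCGC, was found in 1 of 11 mitotic genes and 5 of the other 17 (Mcm5, Mcm6, Mcm7, Cdk2 and Cdc6), against 1.91% of all genes. Matches of different motifs were allowed to overlap, and a match is a match of letters, with no binding measured here.

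Shown are the promoters of 5 mitotic genes with low values in busulfan 1 and busulfan 2, and that of Pcna, whose values were high there. They were chosen after the values were seen. Cdc20 was not below all control libraries, at 0.48 FPKM in busulfan 1 against 0.42 in control 3. Each lies on the minus strand and is written 5′ to 3′ on the strand of the gene, up to the base before its annotated span. They are Ccnb2 (chr9:70421555-70421804), Cdk1 (chr10:69352913-69353162), Cdc20 (chr4:118437344-118437593), Top2a (chr11:99024200-99024439), Mki67 (chr7:135716451-135716629) and Pcna (chr2:132253181-132253430). In the same assembly all 36 are annotated as protein-coding, Ccnb2 (Entrez gene 12442) from 70407689 to 70421554 on chromosome 9, Cdk1 (12534) from 69335146 to 69352912 on chromosome 10 and Pcna (18538) from 132249286 to 132253180 on chromosome 2. Values are per gene. Capitals mark matches to the CHR element, the CCAAT box and, in Cdk1, the E2F site.
Ccnb2: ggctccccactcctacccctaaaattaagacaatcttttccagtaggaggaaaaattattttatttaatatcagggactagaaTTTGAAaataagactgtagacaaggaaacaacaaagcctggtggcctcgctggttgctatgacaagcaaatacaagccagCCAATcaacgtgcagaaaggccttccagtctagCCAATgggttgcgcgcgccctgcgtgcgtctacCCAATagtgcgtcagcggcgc
Cdk1: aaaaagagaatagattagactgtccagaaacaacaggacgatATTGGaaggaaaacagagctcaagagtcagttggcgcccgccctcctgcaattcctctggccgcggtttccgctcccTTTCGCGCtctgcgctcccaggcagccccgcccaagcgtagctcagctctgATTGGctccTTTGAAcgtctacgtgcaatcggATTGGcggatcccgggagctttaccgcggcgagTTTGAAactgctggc
Cdc20: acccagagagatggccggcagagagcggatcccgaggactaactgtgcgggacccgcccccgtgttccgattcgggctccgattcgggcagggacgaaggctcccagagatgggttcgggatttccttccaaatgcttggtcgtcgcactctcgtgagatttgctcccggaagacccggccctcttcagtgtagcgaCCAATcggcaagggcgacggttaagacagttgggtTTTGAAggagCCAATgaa
Top2a: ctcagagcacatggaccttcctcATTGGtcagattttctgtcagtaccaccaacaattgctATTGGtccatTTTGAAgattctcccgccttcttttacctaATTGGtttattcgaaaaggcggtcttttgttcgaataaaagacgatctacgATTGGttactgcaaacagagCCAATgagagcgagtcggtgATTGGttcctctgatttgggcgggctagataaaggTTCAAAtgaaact
Mki67: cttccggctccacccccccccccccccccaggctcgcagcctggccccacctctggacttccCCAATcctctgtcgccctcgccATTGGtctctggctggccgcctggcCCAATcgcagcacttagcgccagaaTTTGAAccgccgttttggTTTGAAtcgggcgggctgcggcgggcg
Pcna: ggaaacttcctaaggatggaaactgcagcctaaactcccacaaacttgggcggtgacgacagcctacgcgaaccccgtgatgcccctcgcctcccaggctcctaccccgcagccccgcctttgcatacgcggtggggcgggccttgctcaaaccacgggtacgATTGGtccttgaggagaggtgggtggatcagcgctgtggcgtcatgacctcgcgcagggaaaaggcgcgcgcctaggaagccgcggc
Each of the 5 mitotic promoters shown holds a CHR element and at least 1 CCAAT box. In Pcna the search found a CCAAT box alone. This contrast depends on the genes chosen. Bub1b, not shown, was 0.04 and 0.10 FPKM in busulfan 1 and busulfan 2 against 0.17 to 0.20 in control, and had no CHR match. Tk1, not shown, was high there, at 9.25 and 11.35 FPKM, and had a CHR match.

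Among the D-type cyclins and their kinase, which drive the entry into the cycle, 3 of 4 genes stood higher in busulfan 1 and busulfan 2 than in any control library. Ccnd2 stood lower there than in any control library. Over all tested genes, the median difference from the control mean was 0.125 in busulfan 1 and 0.171 in busulfan 2. With busulfan 3 left out, 24.4% of tested genes were called higher by adjusted p and 8.12% lower. These shares are not counts of genes without overlap, so they are no direct match for the 3 of 4. Ccnd3 was 32.7, 27.6 and 30.6 FPKM in control 1, 2 and 3 and 46.7, 43.7 and 34.4 in busulfan 1, 2 and 3. It was 31.5, 33.0 and 33.2 in busulfan plus L.J. and 29.2, 32.2 and 33.1 in L.J. alone. All 3 busulfan libraries were above all libraries of the other groups, busulfan 3 by the least. Cdk4, the kinase activated by these cyclins, was 37.9, 42.6 and 41.5 FPKM in control, 58.2, 66.4 and 42.3 in busulfan, 39.7, 42.5 and 46.4 in busulfan plus L.J. and 36.6, 41.4 and 40.5 in L.J. alone. Busulfan 3 here lay within the range of the control libraries.

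Ccnd1 had another pattern. It was 88.5, 92.0 and 78.6 FPKM in control, 97.1, 113 and 74.3 in busulfan, 113, 131 and 131 in busulfan plus L.J. and 83.9, 117 and 107 in L.J. alone. The busulfan plus L.J. libraries were above every control library. The busulfan group held both the lowest of the 12 values and, in busulfan 2, one within the busulfan plus L.J. range (112.98 against 112.81 in busulfan plus L.J. 1). L.J. alone 2 lay within that range too. Cyclin D2 (Ccnd2) was far lower, at 2.63, 3.01 and 2.80 FPKM in control, 2.08, 2.17 and 2.79 in busulfan, 3.55, 2.25 and 2.70 in busulfan plus L.J. and 2.39, 2.57 and 3.25 in L.J. alone, and all 4 groups overlapped.

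Of the G1/S regulators, the kinase gene Cdk2 was measured at 3.72, 3.36 and 4.43 FPKM in control, 5.77, 6.37 and 3.94 in busulfan, 5.60, 4.30 and 4.81 in busulfan plus L.J. and 4.60, 4.88 and 5.14 in L.J. alone. Every library of L.J. alone was above every control library, and so were busulfan 1 and busulfan 2 but not busulfan 3. E2f1, a transcription factor of S-phase genes, lay between 1.09 and 2.46 FPKM, both ends being busulfan libraries. The cyclin E genes, whose proteins activate CDK2, were low: Ccne1 ran from 0.07 to 0.42 FPKM and Ccne2 from 0.43 to 1.05.

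Of the 5 genes of DNA synthesis and nucleotide supply, 4 had their highest group mean in busulfan. Pcna, the clamp that holds the polymerase on DNA, was 24.98, 25.03 and 23.15 FPKM in control, 36.9, 39.7 and 26.6 in busulfan, 26.1, 25.4 and 24.1 in busulfan plus L.J. and 24.2, 25.1 and 27.3 in L.J. alone. Every busulfan library exceeded every control and every busulfan plus L.J. library, though busulfan 3 lay below 1 library of L.J. alone. Tk1, which salvages thymidine, was 6.64, 5.96 and 5.22 FPKM in control, 9.25, 11.35 and 6.48 in busulfan, 6.43, 6.22 and 6.21 in busulfan plus L.J. and 6.32, 5.09 and 5.33 in L.J. alone. Its value in busulfan 3 was below the highest control library. Tyms, which makes thymidylate, was 10.6, 13.8 and 14.3 FPKM in control and 16.1, 16.6 and 16.2 in busulfan, the gene of this group in which the 3 busulfan libraries were most alike. It was 15.5, 14.1 and 11.5 in busulfan plus L.J. and 12.68, 11.98 and 12.68 in L.J. alone.

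The subunits of ribonucleotide reductase, the enzyme that makes deoxynucleotides, differed in pattern. The large subunit gene Rrm1 was 3.74, 4.19 and 3.84 FPKM in control, 5.72, 5.49 and 3.12 in busulfan, 4.60, 3.50 and 3.97 in busulfan plus L.J. and 3.47, 4.16 and 3.88 in L.J. alone. Busulfan 3 had the lowest of the 12 values and the other busulfan libraries the highest. The small subunit gene Rrm2 was 1.80, 2.05 and 1.39 FPKM in control, 1.61, 1.42 and 1.81 in busulfan, 2.24, 1.73 and 2.13 in busulfan plus L.J. and 1.30, 1.51 and 1.14 in L.J. alone. Its busulfan values lay within the control range. Summed over Pcna, Rrm1, Rrm2, Tyms and Tk1, levels were between 47.8 and 51.0 FPKM in control, 54.2 and 74.5 in busulfan, 47.9 and 54.8 in busulfan plus L.J. and 47.8 and 50.4 in L.J. alone. The value of 54.2 belonged to busulfan 3.

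**Figure D2:**
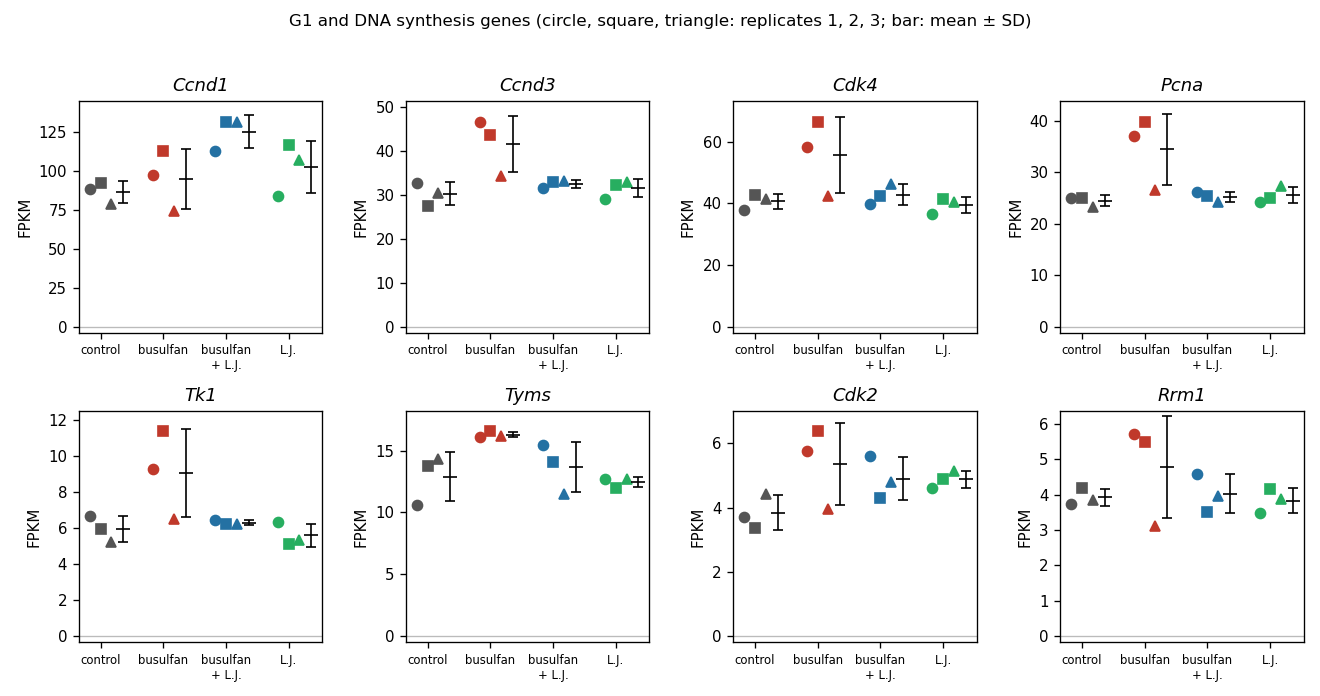
FPKM of 8 G1 and DNA synthesis genes in each library (points) with the mean and SD of the 3 libraries of a group (bars). Busulfan 1 and busulfan 2 (circle and square) stand above the control libraries in the 8 genes drawn. Left out are Ccnd2 and E2f1, which were below every control library in both, and Rrm2, which was within the control range. Without busulfan 3, 24.4% of all tested genes were called higher by adjusted p, a measure other than standing above every control library. Busulfan 3 (triangle) does not exceed the highest control library in Ccnd1, Cdk4, Tk1, Cdk2 and Rrm1, and Ccnd1 has its highest mean in busulfan plus L.J.

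Of the licensing genes, which prepare origins for replication, Mcm6 and Gmnn varied most. Mcm2 was 2.68, 2.95 and 3.32 FPKM in control, 3.02, 3.17 and 2.41 in busulfan, 2.86, 2.57 and 3.89 in busulfan plus L.J. and 2.59, 2.73 and 2.70 in L.J. alone. Mcm6 was 7.77, 5.39 and 4.42 FPKM in control, 2.64, 4.63 and 6.10 in busulfan, 4.43, 1.00 and 1.14 in busulfan plus L.J. and 4.35, 4.15 and 4.51 in L.J. alone. Its values in busulfan plus L.J. 2 and 3 were the lowest of the 12, while busulfan plus L.J. 1 was at the level of control 3. The coefficient of variation over the 12 libraries was 45.4% for Mcm6, against 12.01% for Mcm4, 13.95% for Mcm2, 13.96% for Mcm7, 19.3% for Mcm5 and 19.7% for Mcm3. The proteins of these genes work as 1 complex, and none of the other subunit genes had its lowest of the 12 values in busulfan plus L.J. 2 or 3.

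**Figure D3:**
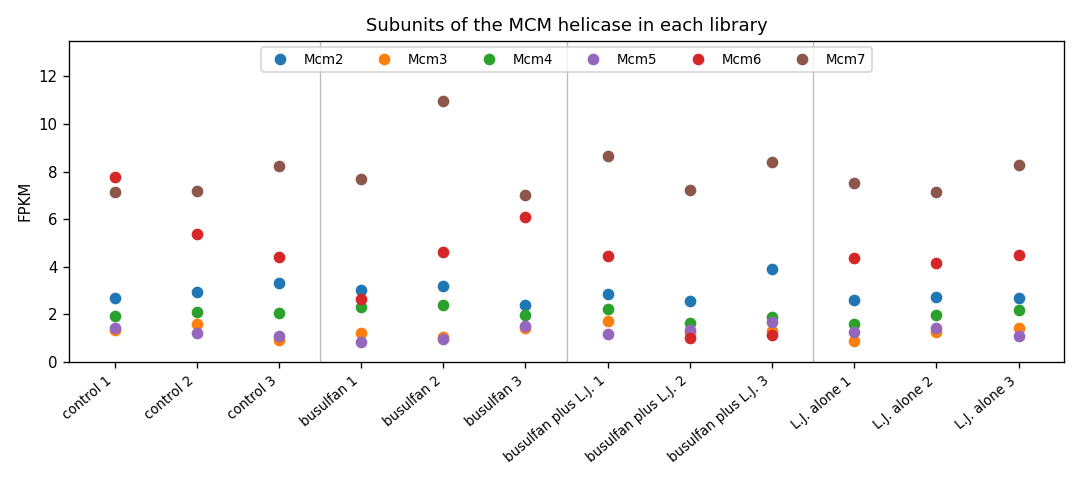
FPKM of the MCM helicase subunit genes in each of the 12 libraries, with vertical lines between the groups. Mcm6 is at 1.00 and 1.14 in busulfan plus L.J. 2 and 3, and Mcm7 is the highest of the other subunits in every library.

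Gmnn, the gene of the licensing inhibitor geminin, ran from 1.41 to 4.93 FPKM, with both ends in the busulfan plus L.J. group and a coefficient of variation of 39.6%. Cdt1, which geminin blocks, ran from 1.23 in busulfan 3 to 2.21, and the loading factor gene Cdc6 from 0.11 to 0.25.

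The summed level of the mitotic genes was lowest in busulfan 1 and busulfan 2. Summed over the 14 genes, levels were 10.0, 8.81 and 7.08 FPKM in control 1, 2 and 3, 3.99, 4.23 and 13.02 in busulfan, 16.05, 9.17 and 12.2 in busulfan plus L.J. and 8.87, 9.56 and 11.9 in L.J. alone. Busulfan 3 was thus behind busulfan plus L.J. 1 alone, and busulfan 1 and busulfan 2 were the lowest of the 12. Not every gene followed the sum. Aurka, Aurkb, Foxm1, Bub1, Ccnb1, Cdc20 and Birc5 were not below every control library in both busulfan 1 and busulfan 2. In bulk tissue, fewer dividing cells and less RNA per cell cannot be told apart.

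The partner of CDK1 encoded by Ccnb2 showed it most plainly, at 0.47, 0.72 and 0.75 FPKM in control, 0.09, 0.05 and 0.66 in busulfan, 0.92, 0.79 and 0.83 in busulfan plus L.J. and 0.68, 0.67 and 0.84 in L.J. alone. By the estimated depth, the busulfan 1 and busulfan 2 values stand for about 2 and 1 fragments and the control values for 9 to 15. Cdk1 itself was 0.70, 0.53 and 0.68 FPKM in control, 0.20, 0.05 and 0.78 in busulfan, 0.98, 0.49 and 0.67 in busulfan plus L.J. and 0.48, 0.74 and 0.99 in L.J. alone. Top2a, the topoisomerase that untangles chromosomes, was 0.76, 0.77 and 0.63 FPKM in control, 0.20, 0.20 and 0.94 in busulfan, 1.22, 0.55 and 0.98 in busulfan plus L.J. and 0.68, 0.85 and 1.10 in L.J. alone. In both genes busulfan 3 was above all control libraries and the other busulfan libraries below all others.

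Mki67, which encodes the proliferation marker Ki-67, was 1.16, 1.05 and 0.69 FPKM in control, 0.38, 0.35 and 0.92 in busulfan, 1.53, 0.86 and 1.02 in busulfan plus L.J. and 0.83, 1.04 and 1.32 in L.J. alone. Here busulfan 3 lay within the control range. Cdc20, an activator of the anaphase-promoting complex, was 1.05, 0.69 and 0.42 FPKM in control, 0.48, 0.24 and 1.22 in busulfan, 1.58, 1.25 and 1.61 in busulfan plus L.J. and 0.93, 0.85 and 0.95 in L.J. alone. The busulfan plus L.J. values were above those of every other library. The survivin gene Birc5 was 1.28, 0.94 and 0.57 FPKM in control, 0.30, 0.59 and 3.26 in busulfan, 2.36, 1.13 and 1.15 in busulfan plus L.J. and 1.45, 1.54 and 1.56 in L.J. alone, and the highest of its 12 values was that of busulfan 3.

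Cyclin B1 (Ccnb1) was 0.34, 0.27 and 0.17 FPKM in control, 0, 0.21 and 0.73 in busulfan, 1.72, 0.52 and 1.15 in busulfan plus L.J. and 0.54, 0.39 and 0.58 in L.J. alone. It was above every control library in all libraries of both L.J. groups. Cyclin A2 (Ccna2) ran from 0.67 to 2.05 FPKM and the kinase gene Plk1 from 0.41 to 1.44, each lowest in a busulfan library and highest in busulfan plus L.J. 1. The aurora kinase genes ran from 0.34 to 1.11 FPKM (Aurka) and from 0.17 to 0.72 (Aurkb). The factor gene Foxm1, an activator of mitotic genes, ran from 0.34 to 0.73. The spindle checkpoint genes Bub1 and Bub1b did not exceed 0.16 and 0.33 FPKM, which stand for at most about 7 and 15 fragments, so differences of these genes were hardly detectable at this depth.

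**Figure D4:**
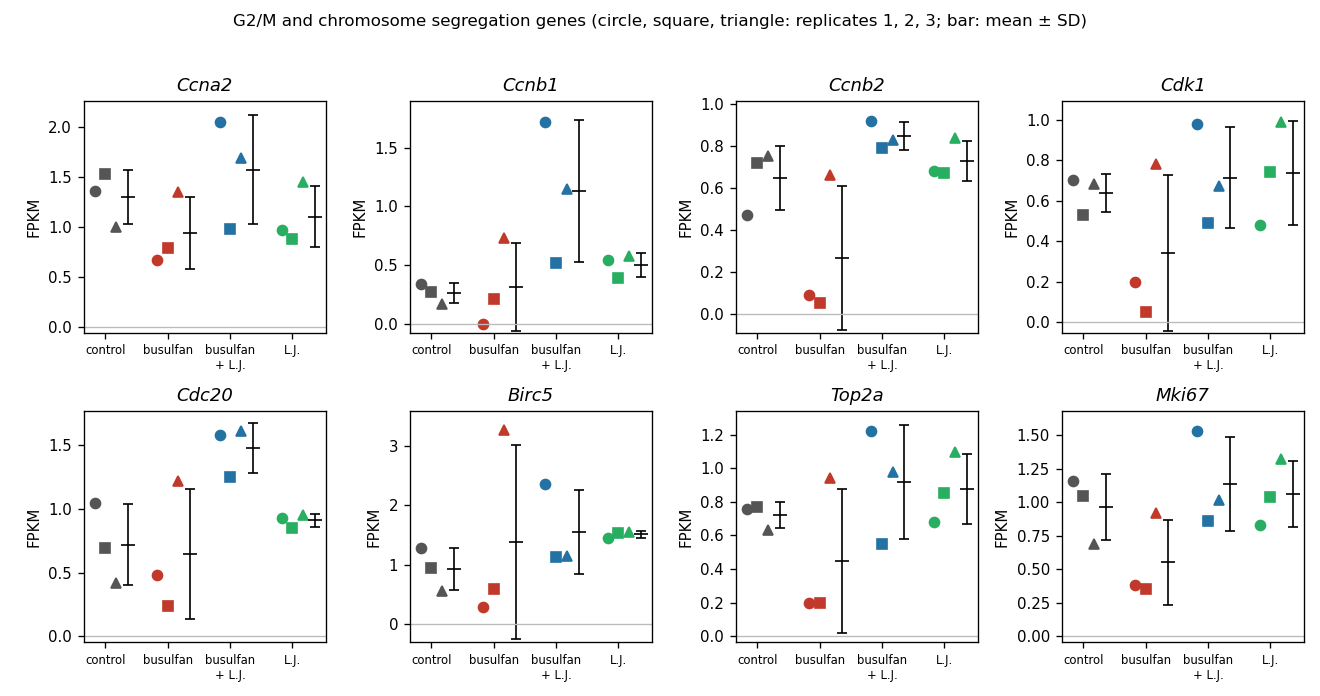
FPKM of 8 mitotic genes in each library (points) with the mean and SD of the 3 libraries of a group (bars, which reach below 0 where the SD exceeds the mean). Busulfan 1 and busulfan 2 (circle and square) are low in Ccnb2, Cdk1, Top2a and Mki67, busulfan 3 (triangle) is not, and Cdc20 is highest in busulfan plus L.J. Left out are Plk1 and Bub1b, which were below every control library in both busulfan 1 and busulfan 2. Also left out are Aurka, Aurkb, Foxm1 and Bub1, which were not.

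Neutrophil markers (S100a8, S100a9, Ly6g, Retnlg and Mmp8, 3 of 5 past the filter) summed to between 7.01 and 7.82 FPKM in control, 9.62 and 105 in busulfan, 3.74 and 5.83 in busulfan plus L.J. and 4.57 and 6.39 in L.J. alone, with 75.2 in busulfan 1, 105 in busulfan 2 and 9.62 in busulfan 3. S100a8 and S100a9 made up most of the high sums, and Ly6g did not separate these libraries, at 5.56 and 3.55 FPKM in busulfan 1 and busulfan 2 against 3.87 to 4.91 in control. Their part in the results was not tested. Mmp8 and Retnlg were at 0 in some libraries of the other groups and above 0 in all busulfan libraries. Busulfan 3 was low in them, at 0.40 FPKM for Retnlg and 0.03 for Mmp8, the latter as in control 2. The general leukocyte markers (5 of 5 past the filter) did not separate busulfan 1 and busulfan 2, at 29.0 and 32.2 FPKM against 24.8 to 33.5 in control, and busulfan 3 was the highest of the 12 at 48.1. In the lists for macrophages, T cells, B and plasma cells and erythroid cells, busulfan 1 and busulfan 2 did not both lie on one side of all other libraries; macrophage markers (5 of 5 past the filter) were highest in busulfan 3, at 63.4 FPKM.

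The comparison of busulfan with control asked what the drug did to these transcripts. With all libraries, 0 of 23 tested genes passed an adjusted p of 0.05 in limma, and 1.44% of all 12281 tested genes did. An unadjusted p under 0.05 was found in 6 of 23 (26.1%), near the 22.7% of all tested genes. Without the filter 0 of 36 passed, against 0.298% of 18448 genes, and 7 (19.4%) had an unadjusted p under 0.05, against 18.3%. The smallest p-values belonged to genes that were higher with busulfan: Ccnd3 was 30.3 ± 2.59 FPKM in control and 41.6 ± 6.40 in busulfan (mean ± SD, n = 3; log2 difference 0.44, SE 0.11, limma adjusted p = 0.0674). Pcna was 24.4 ± 1.07 and 34.4 ± 6.91 FPKM (log2 difference 0.46, SE 0.13, limma adjusted p = 0.0760), and Tk1 was 5.94 ± 0.710 and 9.03 ± 2.44 (0.51, SE 0.16, limma adjusted p = 0.107). The differences are on the scale of log2(FPKM + 1), which understates those of low genes. Higher values in busulfan with no overlap between the groups were found in Ccnd3, Pcna and Tyms, 3 of 23 genes, and in 14.7% of all tested genes. No gene of the 23 was lower without overlap, against 7.33% of all. The median log2 difference was 0.087 over the 23 genes and 0.083 over all tested genes.

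Without busulfan 3 the same comparison called 7 of the 23, against 32.5% of all tested genes. Higher were Pcna (log2 difference 0.63, limma adjusted p = 4.33e-04), Ccnd3 (0.56, 0.00125), Cdk4 (0.60, 0.00144), Tk1 (0.70, 0.00206), Cdk2 (0.55, 0.00710) and Rrm1 (0.42, 0.0156). These 6 were 26.1% of the 23, close to the 24.4% of all genes called higher, so the share is not a result about these genes. Mki67 was lower (-0.52, limma adjusted p = 0.0421). The median of all tested genes was 0.15 in this fit. After quantile normalization, which brought that median to 0.01, Pcna, Ccnd3, Cdk4, Tk1 and Cdk2 were still called higher, 21.7% of the 23 against 13.1% of all, and Ccnd2, E2f1 and Mki67 lower (3 of 23, against 13.4%). The difference of E2f1 was -0.12 with all libraries and turned to 0.05 with busulfan 2 left out instead. Since 10 of the 14 mitotic genes were under the filter, the fit was also made without it. Then 4 of the 36 genes were called lower, all of them mitotic: Ccnb2 (-0.62, SE 0.08, limma adjusted p = 0.00158), Cdk1 (-0.54, 0.0266), Top2a (-0.52, 0.0307) and Mki67 (-0.52, 0.0418). They were 11.1% of the 36, against 5.11% of all genes called lower, and 6 (16.7%) were called higher, against 16.8%. With quantile normalization as well, 8 of the 36 were called lower, 6 of them mitotic, against 8.49% of all genes, and 5 higher, against 8.68%. These calls rest on busulfan 1 and busulfan 2 alone, the libraries with high S100a8 and S100a9 and low Kap.

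Whether L.J. altered these transcripts in treated kidneys was asked by setting busulfan plus L.J. against busulfan alone. With all libraries, 0 of 23 genes passed, against 3.24% of all tested genes, and 8 (34.8%) had an unadjusted p under 0.05, against 23.4%. Pcna was 25.2 ± 0.991 FPKM with L.J. added (n = 3; log2 difference -0.42, SE 0.13, limma adjusted p = 0.0857) and Ccnd3 32.5 ± 0.901 (-0.33, SE 0.11, limma adjusted p = 0.110). Cdc20 stood at 1.48 ± 0.200 FPKM against 0.647 ± 0.511 (0.63, SE 0.21, limma adjusted p = 0.103). Without the filter 0 of 36 passed, against 0.813% of all genes, and 12 (33.3%) had an unadjusted p under 0.05, against 19.0%. In that fit the smallest p was that of Ccnb2 (0.58, SE 0.15, limma adjusted p = 0.0852). Without overlap, Ccnd3, Pcna, Tyms and Tk1 were lower with L.J. added (4 of 23, against 12.1% of all genes) and Cdc20 was higher (1 of 23, against 7.14%).

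Without busulfan 3, and without the filter, 8 of the 36 genes were called higher with L.J. added, all of them mitotic, and 5 lower. The 8 were Ccnb1 (log2 difference 0.91, limma adjusted p = 0.0135), Cdc20 (0.87, 0.00420), Birc5 (0.79, 0.0308), Ccnb2 (0.79, 6.03e-04), Top2a (0.66, 0.0122), Mki67 (0.63, 0.0206), Cdk1 (0.60, 0.0189) and Aurka (0.38, 0.0352). They were 22.2% of the 36, against 5.24% of all genes called higher. The difference of Birc5 was 0.27 with all libraries and turned to -0.07 with busulfan 1 left out instead. The 5 lower genes were Tk1 (-0.63), Pcna (-0.59), Cdk4 (-0.53), Ccnd3 (-0.46) and Rrm1 (-0.40), 13.9% of the 36 against 16.3% of all genes called lower. Quantile normalization brought the counts to 14 higher, 10 of them mitotic (8.72% of all genes), and 4 lower (8.07%). With the filter, 3 of 23 were called higher (Cdc20, Birc5 and Mki67; 7.98% of all genes) and the same 5 lower (23.6% of all genes), in all 8 of 23 against 31.6%. Busulfan 1 and busulfan 2 serve in both this comparison and the one with control, so the opposite signs are not independent.

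**Figure D5:**
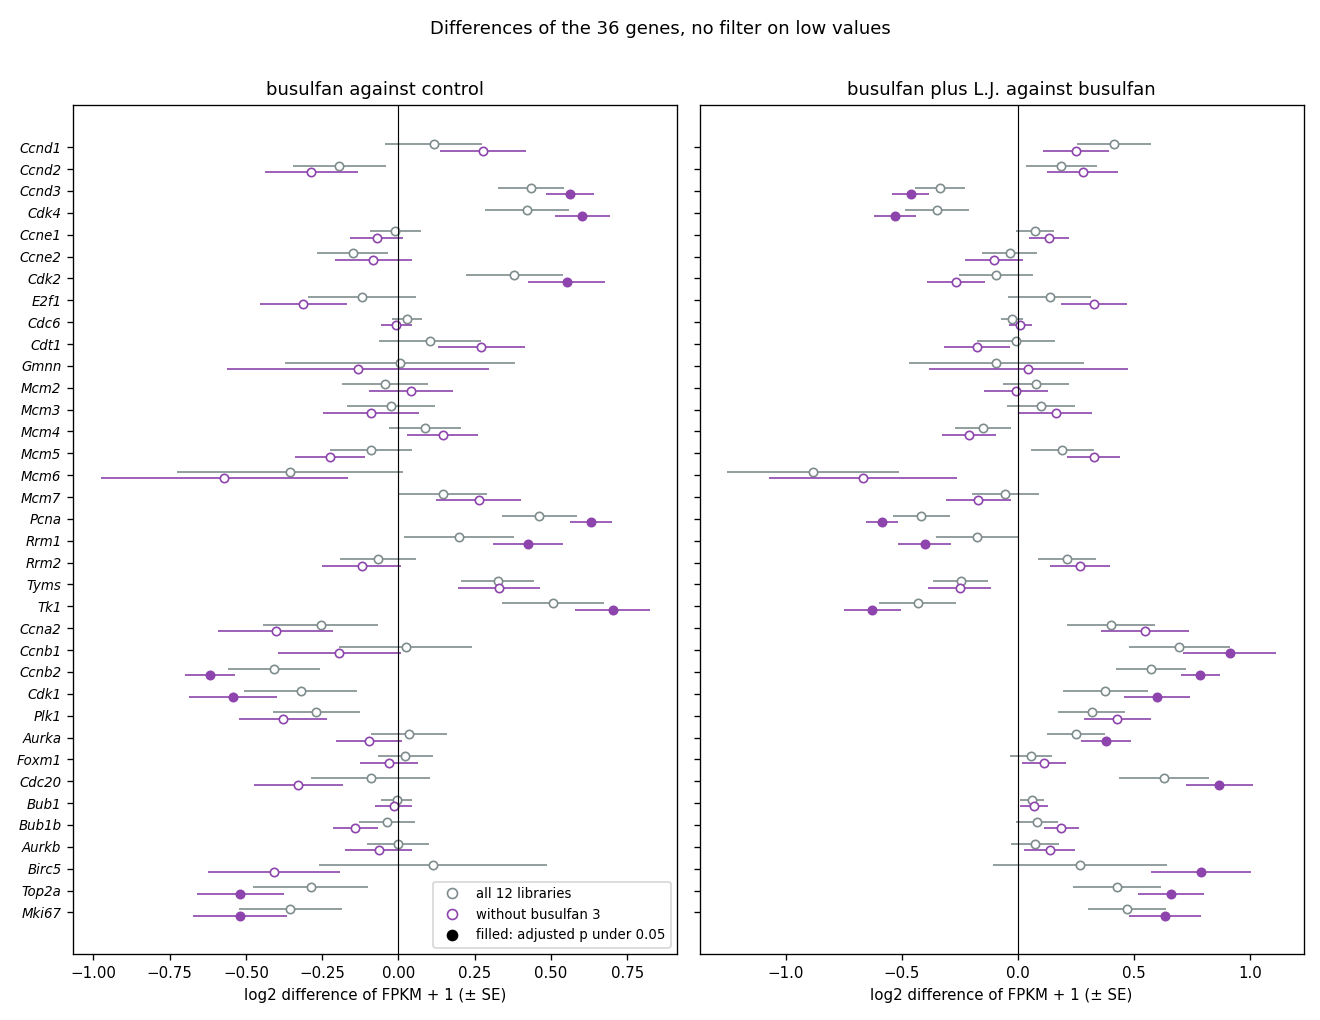
Log2 differences (± SE) of the 36 genes on the scale of log2(FPKM + 1), tested with no filter on low values, for busulfan against control (left) and busulfan plus L.J. against busulfan (right), with all 12 libraries (grey) and without busulfan 3 (purple). No grey point is filled (adjusted p under 0.05), and the filled purple points lie among the G1 and DNA synthesis genes on one side and the mitotic genes on the other.

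L.J. alone against control asked what the agent did by itself. Of 23 genes 0 passed, and 0.0% of all tested genes did; 0 had an unadjusted p under 0.05, against 2.74% of all. Without the filter 0 of 36 passed and 1 (2.78%), Aurkb, had an unadjusted p under 0.05, against 3.33%. The smallest p-values with the filter were those of Cdk2 (log2 difference 0.29, SE 0.15), Rrm2 (-0.24, SE 0.13) and Ccnd1 (0.23, SE 0.16), each with a limma adjusted p of 0.999. Cdk2 and Birc5 were higher without overlap (2 of 23, against 4.74% of all genes) and 0 were lower (against 8.22%).

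Busulfan plus L.J. against control asked how far treated kidneys given L.J. stood from control. Of 23 genes 0 passed, against 0.00814% of all tested genes, and 3 of the 23 had an unadjusted p under 0.05, against 2.87%. Without the filter 0 of 36 passed and 5 (13.9%) had an unadjusted p under 0.05, against 3.55% of all genes. The 3 with the filter were Mcm6 (log2 difference -1.24, SE 0.35), Ccnd1 (0.53, SE 0.16) and Cdc20 (0.54, SE 0.21), each with a limma adjusted p of 1.00. Without overlap, Ccnd1 and Cdc20 were higher (2 of 23, against 5.63% of all genes) and 0 lower (against 4.46%). Without the filter Ccnb1, Ccnb2 and Aurka were also higher (5 of 36, against 4.78%).

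The interaction asked whether the effect of busulfan differed with L.J. present. Of 23 genes 0 passed, against 0.0163% of all tested genes, and 3 of the 23 had an unadjusted p under 0.05, near the 11.7% of all. The 3 were Pcna (-0.48, SE 0.18, limma adjusted p = 0.351), Ccnd3 (-0.39, SE 0.16, limma adjusted p = 0.380) and Rrm2 (0.46, SE 0.19, limma adjusted p = 0.383). Without busulfan 3, Pcna (-0.65), Tk1 (-0.55), Ccnd3 (-0.52) and Cdk4 (-0.49) were called, 4 of 23 (17.4%), against 8.0% of all genes called lower, and 0 were called higher, against 4.12%. With all libraries and no filter 0 of 36 passed, against 0.00542% of all genes, and 5 (13.9%) had an unadjusted p under 0.05, against 9.91%. Without the filter and without busulfan 3, Ccnb2 (0.71, limma adjusted p = 0.00881) was called higher, 1 of 36 against 2.35% of all genes, and Pcna, Ccnd3 and Cdk4 lower, 3 of 36 against 4.85%.

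Other genes of the same machinery were taken from 5 lists. With all libraries 1 gene of these lists was called in any comparison, with busulfan plus L.J. set against busulfan, where 3.24% of all tested genes were called: Cdkn2d, an inhibitor of CDK4, was 2.60 ± 0.316 FPKM in control, 3.45 ± 0.136 in busulfan and 2.21 ± 0.110 in busulfan plus L.J., and fell between the last 2 groups (log2 difference -0.47, SE 0.11, limma adjusted p = 0.0441). Without the filter this call was lost (limma adjusted p = 0.0652). The p53 target Cdkn1a, which encodes the CDK inhibitor p21, was 10.4, 10.1 and 9.37 FPKM in control, 13.3, 39.3 and 18.5 in busulfan, 16.1, 13.6 and 14.5 in busulfan plus L.J. and 12.04, 5.97 and 10.1 in L.J. alone. All libraries given busulfan, with or without L.J., exceeded all control libraries, and the difference between busulfan and control did not pass (1.04, SE 0.32, limma adjusted p = 0.0971). Orc4 of the origin recognition complex was 13.6 ± 1.25 FPKM in control and 9.66 ± 0.688 in busulfan (-0.45, limma adjusted p = 0.0852), and E2f3, another E2F factor, 2.80 ± 0.118 and 1.58 ± 0.792 (-0.60, limma adjusted p = 0.0982). The CDK inhibitor gene Cdkn1c was 27.5 ± 10.8 FPKM in busulfan and 11.3 ± 0.466 with L.J. added (-1.14, limma adjusted p = 0.0812).

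Without busulfan 3, 8 of 15 CDK inhibitor, RB family and checkpoint genes were called higher in busulfan than in control and 0 lower, against 24.4% of all genes called higher. Among them were Cdkn1c (log2 difference 1.20), Cdkn1a (1.14), the mitosis-delaying kinase gene Wee1 (1.08), the antiproliferative gene Btg2 (0.99) and Cdkn1b (0.79). Rb1 and Rbl2, also called, turned negative with busulfan 1 or busulfan 2 left out instead (Rb1 to -0.12 and -0.10, Rbl2 to -0.10 and -0.11). Of 22 polymerase and fork genes 7 were called higher and 0 lower, against 24.4% and 8.12% of all genes. Among the 7 were Pold2 (0.84), Prim1 (0.59, but -0.09 with busulfan 2 left out instead) and Pold3 (-0.06 with busulfan 1 left out instead). Of 8 tested spindle, kinetochore and cytokinesis genes 4 were called lower, Spc25 (-0.70), Nusap1 (-0.61), Cdca8 (-0.61) and Ube2c (-0.51), against 8.12% of all genes. The origin list gave 1 higher and 1 lower of 13, and the list of other E2F, MYB and CDK regulators 2 higher and 2 lower of 15. The shares of all genes were 24.4% and 8.12% here too. With L.J. added to busulfan, 8 of the 15 inhibitor and checkpoint genes were called lower (23.6% of all genes) and 4 of the 8 spindle genes higher (7.98%). The sign of Rb1, Rbl2 and Spc25, which were among these, depended on which library was left out.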

How the data were processed

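RNA from frozen mouse kidneys was extracted with Trizol and a column kit and made into Illumina libraries, per the labels' protocols. Bowtie 0.12.2 and the mm10 build are named per the submitters' processing notes; no counting tool is given in the sources used here, nor the annotation or strandedness. The authors deposited 1 table of FPKM values per gene and library, with 2 decimals, per the file headers. All 12 value columns were mapped to a sample, and 26 symbols stored as dates or left blank were restored.

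Genes with at least 1 FPKM in at least 3 libraries were kept (12281), and log2(FPKM + 1) was fitted over all 12 libraries with 1 mean per group (limma 3.58.1, R 4.3.3, trend option). A gene was called where its two-sided p, adjusted over all tested genes by Benjamini-Hochberg, was under 0.05. The interaction is the busulfan difference with L.J. less that without. On simulated data (12281 genes, 100 changed at each size) the fit recovered 60% (interaction) to 84% of log2 changes of 1 and 92% to 100% of changes of 2. The simulation held no library that stood apart.

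The genes and lists were chosen with earlier results of these data known. Tests are printed for called genes and the 3 smallest p per comparison, and library values for these, the most abundant genes and a short list of well-known markers; others named with values were chosen after those were seen. Alternatives were each library left out, a length and GC correction, a fit to the compared groups alone, replicate number as a block, weights per library, quantile normalization, no filter, and a pseudocount of 0.1. No filter, or quantile normalization with and without the filter, together with busulfan 3 left out, was added after seeing the data. Promoters came from the RefSeq table of GRCm38.p6, with 1 window per gene, and transcript lengths from GENCODE M21. Fragments behind a value were estimated from the steps of low values and are approximate. Plots used Python 3.11.15, pandas 2.3.3 and matplotlib 3.10.9.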

Additional observations from a re-analysis of the deposited data

Results flagged for a closer look

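In Rrm2, the difference of group means with L.J. pointed in opposite directions with and without busulfan, though the groups of each pair overlapped. Every busulfan plus L.J. library was above the busulfan mean (1.61 FPKM) and every library of L.J. alone was below the control mean (1.75 FPKM). The difference between the effects was 0.46 on the log2 scale, and its test did not pass (limma adjusted p = 0.383).

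In Plk1, the differences of group means for busulfan and for L.J. each changed sign in the same way, between groups that overlapped or met. Every busulfan library was below the control mean (0.863 FPKM) and every busulfan plus L.J. library above the mean of L.J. alone (0.657 FPKM); likewise every busulfan plus L.J. library was above the busulfan mean (0.553 FPKM) and every library of L.J. alone below the control mean. The difference was 0.49 on the log2 scale in the fit with no filter, and its test did not pass (limma adjusted p = 0.474). Without busulfan 3 the differences were 0.51 for Rrm2 and 0.60 for Plk1, and their tests did not pass either (limma adjusted p = 0.102 and 0.101).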

How the results depend on the processing

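Counts of genes called in busulfan against control (177) were 55 with no filter, 503 with quantile normalization, 5240 with library weights, 10 with the length and GC correction, 0 with only the groups compared and 0 to 3989 with a library left out. For busulfan plus L.J. against busulfan (398) they were 150, 656, 4945, 34, 2 and 1 to 3880. For the interaction (2) they were 1, 0, 2422 and 0, and 0 to 1489 with a library left out; a pseudocount of 0.1 gave 0. For busulfan plus L.J. against control (1) a pseudocount of 0.1, no filter and only the groups compared gave 0, library weights 10, and leaving out a library 0 to 2. For L.J. alone (0) library weights gave 19 and leaving out a library 0 to 1. Of the fits with a library left out, those without busulfan 3 gave the highest counts in the 3 comparisons that use the busulfan group. With busulfan 3 left out together with no filter, quantile normalization, or both, the counts were 4033, 3251 and 3169 for busulfan against control, 3979, 3173 and 3097 for busulfan plus L.J. against busulfan, 1328, 1426 and 1246 for the interaction, and 0, 2 and 0 for busulfan plus L.J. against control.

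Of the cell cycle and replication genes, 0 were called in each comparison with all libraries weighted equally. Library weights called 10 of 23 in busulfan against control, beside 5240 of all 12281 tested genes. They called 11 in the comparison of both busulfan groups (4945 of all genes) and 4 in the interaction (2422). With busulfan plus L.J. set against control they called 1 (Mcm6), beside 10 of all genes. Leaving out a library gave 0 to 7, 0 to 8 and 0 to 4 in the 3 comparisons that use the busulfan group. The calls came without busulfan 3, where 3989, 3880 and 1489 of all tested genes were called. With no filter, quantile normalization, or both, and without busulfan 3, the counts were 10, 8 and 13 for busulfan against control, 13, 11 and 18 for busulfan plus L.J. against busulfan, and 4, 4 and 6 for the interaction. They are out of 36, 23 and 36 genes. The counts over all genes in the same fits are given above and are out of 18448, 12281 and 18448. Their median log2 difference moved to -0.17 and -0.18 (busulfan against control) and 0.23 and 0.22 (busulfan plus L.J. against busulfan) under quantile normalization without busulfan 3, with and without the filter, and that of the interaction to 0.22 under the same normalization without the filter. The cause was not tested. Of 48 pairs of a gene and a comparison (called with or without busulfan 3, or among the 3 smallest p), 3 turned sign, each with a single busulfan library left out: E2f1 without busulfan 2 in busulfan against control (0.05, against -0.12 with all libraries) and in busulfan plus L.J. against busulfan (-0.03, against 0.14), and Birc5 without busulfan 1 in the latter (-0.07, against 0.27).

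The replicate numbers did not pair the samples: correlations of same-numbered libraries lay between -0.239 and 0.0813. With the replicate number as a block, 11 genes were called in busulfan against control, 4 between both busulfan groups and 0 in the other comparisons, with 0 of the 23 in any. Library weights were estimated from all 12 libraries. Depth limits the genes under the filter, where several values stand for fewer than 10 fragments.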
